A study of Sordaria macrospora with 14 samples.

Results

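The deletion of asm2 was examined for tissue dependence in Sordaria macrospora: for every gene model, the difference between Δasm2 and wild type in perithecia was set against that in mycelium. The measure was the interaction of strain and tissue, the log2 ratio of Δasm2 to wild type in perithecia minus the same ratio in mycelium. All 9869 gene models of the table entered, none chosen by its values, and 9499 held enough counts to be tested. The interaction compared 8 of the 14 libraries, and all 14 entered the fit that gave the spread. The 8 were wild-type mycelium, wild-type perithecia, Δasm2 mycelium and Δasm2 perithecia, with 2 independent biological replicates each. All strains grew for 6 days at 25 °C on corn meal medium, in liquid culture for mycelium and on solid plates for perithecia, and the perithecia plates were treated with ethanol for 10 min before scraping. Tissue therefore cannot be told apart from culture form and harvest. The remaining libraries came from strains deleted for SMAC_03952 (mycelium and perithecia) and spt3 (mycelium). Whether each deletion strain came from 1 transformant was not given in the sources used here. The labels' extraction text also speaks of microdissected material, without saying for which libraries.

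S. macrospora is a self-fertile filamentous ascomycete. Its vegetative and sexual hyphae form a mycelium, and its fruiting bodies, the perithecia, are closed flasks with a wall of sterile hyphae around the asci in which ascospores mature. Comparing the tissues in a wild type and a mutant separates genes that differ between the strains throughout the fungus from genes that differ in 1 kind of tissue. An interaction of 0 means that the strains differ by the same factor in both tissues. A negative value means that the level in perithecia fell more, or rose less, than in mycelium. In RNA from whole tissue, fewer cells of a type and less RNA per cell cannot be told apart. The deposited table and the gene annotation used here pair no identifier with a name or a product, so no role is given to any gene below, and the tissue labels were not checked with named marker genes.

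The 8 libraries held between 9219211 and 24029990 counts. On the first principal component of log2 CPM (counts-per-million, with 1 CPM added), which held 56.6% of the variance, the mycelium libraries lay between -56.0 and -19.2 and the perithecia libraries between 22.7 and 58.4. On it Δasm2 lay lower than the wild type in both tissues. The perithecia were at 22.7 and 23.2 in Δasm2 and at 57.4 and 58.4 in the wild type. The mycelium was at -56.0 and -51.7 in Δasm2 and at -19.2 and -34.7 in the wild type. The identifier of asm2 is not paired with its name in the sources used here, so the deleted gene itself could not be looked up. The gene model with the lowest ratio of Δasm2 to wild type in perithecia was SMAC_02514. Its level was 386 and 433 CPM in wild-type perithecia and 427 and 444 CPM in wild-type mycelium. In Δasm2 it stood at 0.730 and 0.494 CPM in perithecia, and at 6.64 and 0 CPM (103 and 0 counts) in mycelium. It was low in every Δasm2 library, and its interaction did not pass the threshold (log2 value -2.48, SE 1.25, edgeR adjusted p = 0.313).

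The effect of the deletion differed between the tissues in 171 of 9499 genes, 1.8% of those tested (edgeR quasi-likelihood test on counts, Benjamini-Hochberg adjusted p under 0.05). The interaction was below 0 in 121 genes (1.27%) and above 0 in 50 (0.526%). Its size in the called genes lay between 1.20 and 6.30 on the log2 scale, with a median of 2.00. Over all genes tested the median size was 0.47. The called genes were picked by the interaction itself, so their larger size was built in. A change of at least 4-fold was estimated for 86 of the 171, and 164 of them reached 10 CPM in at least 1 of the 4 groups. At an unadjusted p under 0.05 the interaction held 1782 genes, 18.8%. The number called rested on each library: it was 25 and 96 without wild-type mycelium replicate 1 and 2, and 50 and 96 without wild-type perithecia replicate 1 and 2. It was 35 and 365 without Δasm2 mycelium replicate 1 and 2, and 20 and 2 without Δasm2 perithecia replicate 1 and 2. The balance of signs also moved: without Δasm2 mycelium replicate 2, more genes were called above 0 than below 0. As reported, 70.8% of the called genes lay below 0. This share was 56% with DESeq2, 54% with the 8 libraries alone and 61% with the replicate number as a block. It was 70% with RLE factors, 71.1% without scaling factors, 70.9% without the filter and 71.4% with length trends removed. The estimated sign was the same for the 171 genes in all 15 alternative settings, and the plot of genes called under each setting shows the counts. The genes were called for a large interaction in libraries that these settings reuse, so the kept sign is no separate evidence.

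**Figure D1:**
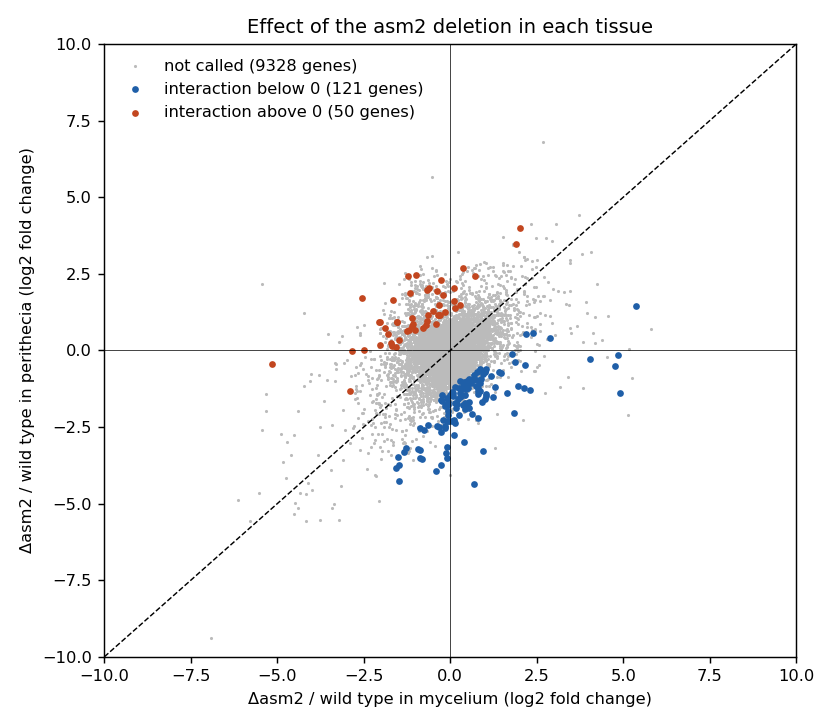
Log2 fold change of Δasm2 against wild type in mycelium (x axis) and in perithecia (y axis), 1 point per gene tested; the dashed line marks equal effects. The 121 genes with an interaction below 0 (blue) lie below the line and the 50 above 0 (red) above it, which is how they were called.

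**Figure D2:**
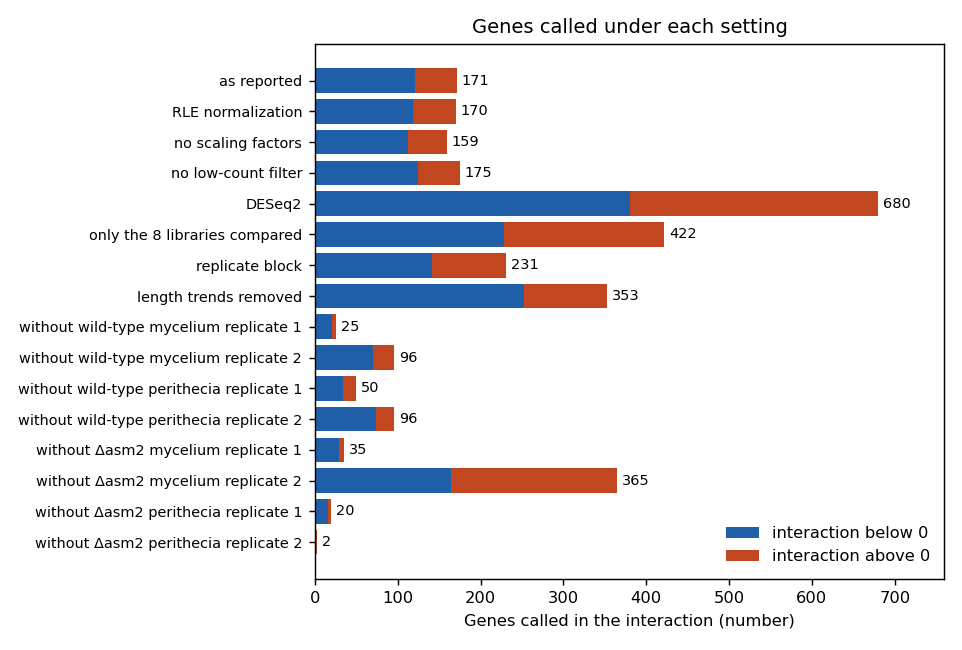
Number of genes called in the interaction (x axis) as reported and under 15 alternative settings, split by sign. The count falls to 2 without Δasm2 perithecia replicate 2 and rises to 680 with DESeq2.

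The called genes were sorted by the tissue in which Δasm2 itself differed from the wild type past the threshold. The largest class, 82 genes or 48% of the called genes, was lower in Δasm2 perithecia and not called in mycelium. The median log2 fold change of its members was -1.72 in perithecia and 0.21 in mycelium. Another 24 genes were higher in Δasm2 mycelium and not called in perithecia, with medians of 1.92 and -0.62. Among genes with an interaction above 0, 24 were higher in Δasm2 perithecia and not called in mycelium (medians 1.55 and -0.35), and 19 were lower in mycelium and not called in perithecia (medians -1.72 and 0.64). Opposite calls were made for 10 genes, 7 higher in mycelium and lower in perithecia and 3 the other way. A further 10 genes were called in both tissues with 1 sign, 8 lower and 2 higher, and 2 were called in neither. A gene not called in a tissue is not shown to be unchanged there. The background over the 9499 genes was 6.73% lower and 5.04% higher in Δasm2 perithecia, and 2.61% lower and 3.45% higher in Δasm2 mycelium. These comparisons use the same libraries as the interaction, so the classes describe its shape and are no separate evidence for it.

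**Figure D3:**
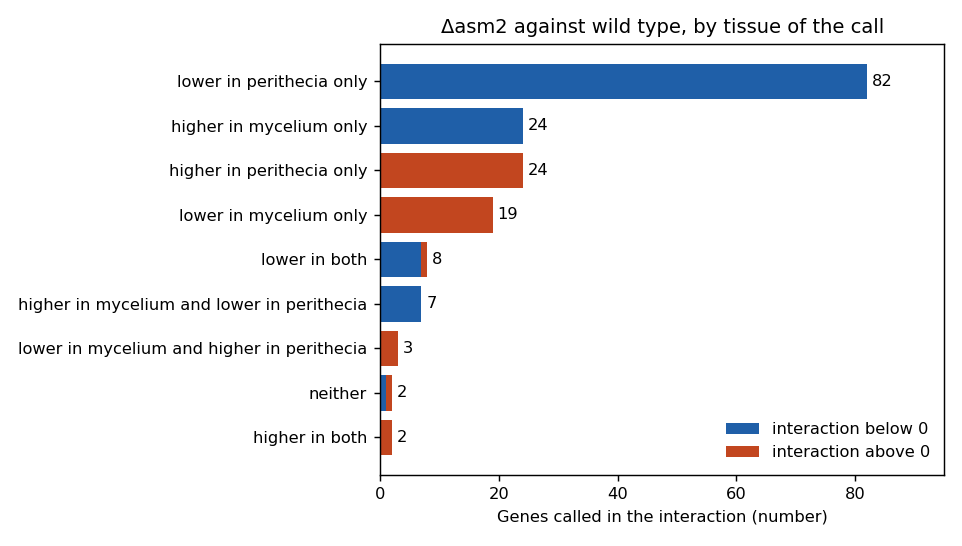
Number of genes called in the interaction (x axis) by the tissue and direction in which Δasm2 differed from the wild type (rows), split by the sign of the interaction. The class lower in perithecia alone holds 82 of 171 genes.

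Of the 82 genes lower in perithecia alone, 48 were called higher in perithecia than in mycelium in the wild type and not called in Δasm2, and 25 were higher in the wild type and lower in Δasm2. Another 7 were not called in the wild type and lower in Δasm2, and 2 were higher in perithecia of both strains. The median of the group means over this class was 47.2 CPM in wild-type mycelium and 128 CPM in wild-type perithecia, against 55.0 CPM in Δasm2 mycelium and 39.7 CPM in Δasm2 perithecia. SMAC_08829 stood at 53.5 and 59.7 CPM in the wild-type perithecia, and at 5.82 and 6.10 CPM in wild-type mycelium. In Δasm2 it stood at 3.68 and 6.37 CPM in mycelium and at 5.62 and 2.85 CPM in perithecia. The wild-type perithecia were high, and the other 6 libraries lay between 2.85 and 6.37 CPM. The level in perithecia was 13.4-fold lower in Δasm2, and the interaction was -3.48 (SE 0.53, edgeR adjusted p = 0.00907).

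SMAC_05678 was less abundant and was also highest in wild-type perithecia. It had 13.4 and 12 CPM in wild-type perithecia and 0.511 and 1.10 CPM in Δasm2 perithecia. In mycelium it had 2.75 and 2.71 CPM in the wild type and 2.32 and 1.76 CPM in Δasm2, so that the Δasm2 perithecia lay below every other library of the 4 groups. Its interaction was -3.53 (SE 0.65, edgeR adjusted p = 0.0189), and the call was lost in 6 of 15 alternative settings.

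SMAC_12746, with 1 of the 2 most negative interactions among genes that met the naming rule, did not follow the wild-type tissue difference. Its wild-type levels overlapped between the tissues, with 14 and 31.1 CPM in mycelium and 34.7 and 29.6 CPM in perithecia. Δasm2 mycelium stood at 44.7 and 27.5 CPM, and Δasm2 perithecia at 1.97 and 1.21 CPM. The Δasm2 perithecia were 20.2-fold below the wild-type perithecia and below every other library of the 4 groups. The interaction was -5.04 (SE 0.66, edgeR adjusted p = 0.00528), and its call was lost in 1 setting, without Δasm2 perithecia replicate 2 (adjusted p = 0.0506).

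Higher levels in Δasm2 mycelium gave some of the largest negative interactions. SMAC_08989 had 25.0 and 7.58 CPM in Δasm2 mycelium and at most 0.939 CPM in the other libraries of the 4 groups. Its replicates in Δasm2 mycelium were unlike each other but both lay above the rest. The interaction was -5.29 (SE 1.12, edgeR adjusted p = 0.0367), and the call was lost in 6 of 15 alternative settings.

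SMAC_01390 was likewise high in Δasm2 mycelium, at 21.9 and 19.4 CPM, and near the lower limit elsewhere. The wild type had 0.566 and 0.417 CPM in mycelium and 0.305 and 0.374 CPM in perithecia, and Δasm2 perithecia had 1.10 and 0.824 CPM. Both Δasm2 tissues thus lay above the wild type, by 42.1-fold in mycelium and by 2.82-fold in perithecia, the latter not past the threshold (edgeR adjusted p = 0.08). The interaction was -3.91 (SE 0.69, edgeR adjusted p = 0.0173), lost in 6 of 15 settings. A more abundant member of this class, SMAC_03080, had 537 and 236 CPM in Δasm2 mycelium against 62.8 and 95.2 CPM in wild-type mycelium. In perithecia it had 19.9 and 21.3 CPM in Δasm2 and 51.6 and 50.2 CPM in the wild type, and its interaction was -3.60 (SE 0.71, edgeR adjusted p = 0.0272, lost in 7 of 15 settings).

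Of the 7 genes that were higher in Δasm2 mycelium and lower in Δasm2 perithecia, SMAC_09488 had the largest interaction, -3.91 (SE 0.52, edgeR adjusted p = 0.00528). In mycelium it had 7.84 and 10.4 CPM in the wild type and 43.9 and 21.6 CPM in Δasm2. In perithecia the order was turned, with 19.8 and 24.5 CPM in the wild type and 5.84 and 4.83 CPM in Δasm2. The strains did not overlap in either tissue. SMAC_07347 repeated this pattern at a smaller size, with 10.4 and 11.9 CPM in wild-type mycelium, 26.9 and 25.4 CPM in Δasm2 mycelium, 28.1 and 18.2 CPM in wild-type perithecia and 7.81 and 8.29 CPM in Δasm2 perithecia. Its interaction was -2.75 (SE 0.39, edgeR adjusted p = 0.00528). The call of SMAC_09488 was lost without Δasm2 perithecia replicate 2 (adjusted p = 0.0553), and that of SMAC_07347 without either Δasm2 perithecia replicate (adjusted p = 0.0506 at most).

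**Figure D4:**
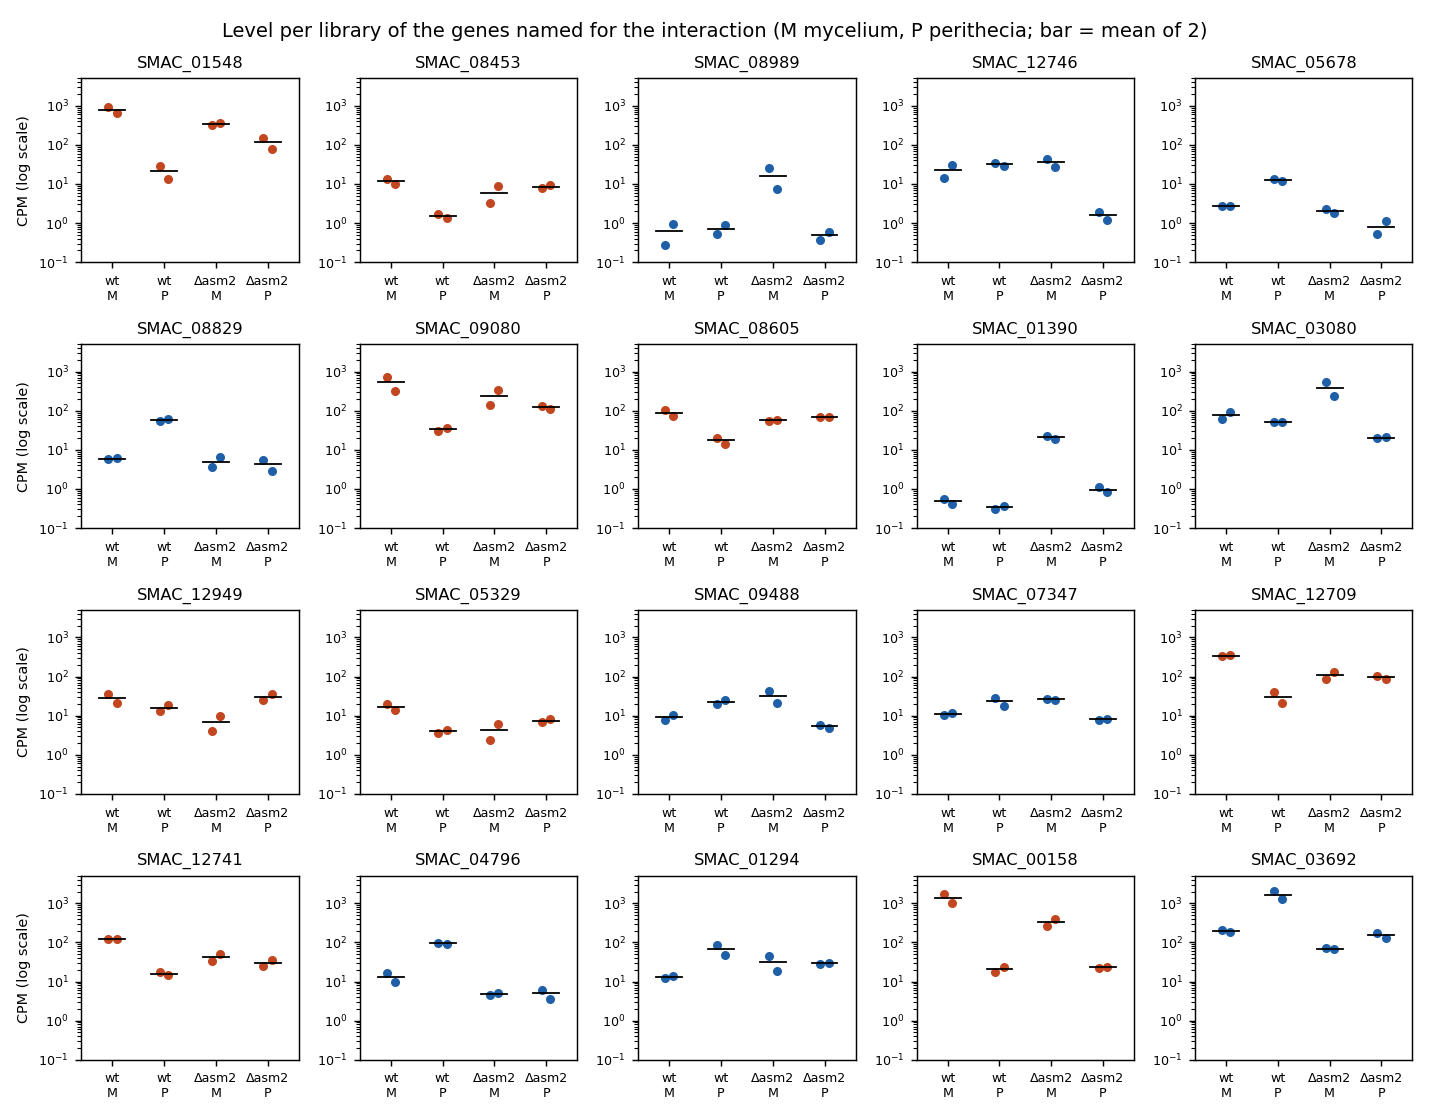
Level in CPM (log scale) of the 20 genes named for the interaction, 1 point per library and a bar at the mean of 2 replicates, for wild type (wt) and Δasm2 in mycelium (M) and perithecia (P). Blue marks an interaction below 0 and red above 0; SMAC_08829 is high in wild-type perithecia alone, and SMAC_01390 in Δasm2 mycelium.

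Genes with an interaction above 0 mostly fell from mycelium to perithecia in the wild type and fell less, or not past the threshold, in Δasm2. SMAC_01548 dropped from 932 and 667 CPM in wild-type mycelium to 29.5 and 13.4 CPM in wild-type perithecia, 37.3-fold. In Δasm2 it stood at 325 and 356 CPM in mycelium and at 151 and 79.5 CPM in perithecia, a difference of 2.95-fold. Each group kept apart from the others. Its interaction was 3.66 (SE 0.57, edgeR adjusted p = 0.0101), with the call lost in 4 of 15 settings.

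SMAC_08453, much less abundant, had 13.3 and 9.91 CPM in wild-type mycelium and 1.68 and 1.37 CPM in wild-type perithecia. In Δasm2 the tissues overlapped, with 3.22 and 8.68 CPM in mycelium and 7.67 and 9.28 CPM in perithecia. The interaction was 3.47 (SE 0.77, edgeR adjusted p = 0.046), close to the threshold, and was lost in 8 of 15 settings.

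Among the genes higher in Δasm2 perithecia alone, SMAC_08605 had 105 and 74.1 CPM in wild-type mycelium and 20.5 and 14.2 CPM in wild-type perithecia. Δasm2 had 53.8 and 58.8 CPM in mycelium and 69.5 and 67.8 CPM in perithecia. The interaction was 2.66 (SE 0.36, edgeR adjusted p = 0.00528), and its call was lost without Δasm2 perithecia replicate 2 (adjusted p = 0.0506). SMAC_09080 fell 15.8-fold in the wild type, from 740 and 316 CPM to 30.4 and 36.6 CPM, and had 141 and 332 CPM in mycelium and 132 and 111 CPM in perithecia of Δasm2. Its Δasm2 mycelium replicates spread over more than their difference from the perithecia, and the interaction of 3.02 (SE 0.65, edgeR adjusted p = 0.0395) was lost in 7 of 15 settings.

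Among the genes lower in Δasm2 mycelium alone, SMAC_12949 had 36.0 and 21.3 CPM in wild-type mycelium and 4.06 and 10.0 CPM in Δasm2 mycelium. Its perithecia had 12.8 and 19 CPM in the wild type and 24.5 and 36.1 CPM in Δasm2, so that Δasm2 perithecia were 4.31-fold above Δasm2 mycelium while wild-type perithecia were not above wild-type mycelium. The interaction was 2.98 (SE 0.58, edgeR adjusted p = 0.0259; lost in 5 of 15 settings). SMAC_05329 had 19.7 and 13.7 CPM in wild-type and 2.32 and 6.04 CPM in Δasm2 mycelium, and 3.66 and 4.24 CPM in wild-type and 6.72 and 8.29 CPM in Δasm2 perithecia. Its interaction was 2.96 (SE 0.65, edgeR adjusted p = 0.0409) and was lost in 8 of 15 settings.

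SMAC_12709 and SMAC_12741 were 2 of the 3 genes that were lower in Δasm2 mycelium and higher in Δasm2 perithecia. SMAC_12709 had 337 and 346 CPM in wild-type mycelium and 39.6 and 21.3 CPM in wild-type perithecia, an 11.2-fold fall. In Δasm2 the 4 libraries lay together, at 89.3 and 127 CPM in mycelium and 104 and 88.1 CPM in perithecia. The interaction was 3.32 (SE 0.52, edgeR adjusted p = 0.011; lost in 4 of 15 settings). SMAC_12741 fell 7.66-fold in the wild type, from 119 and 125 CPM to 17.2 and 14.7 CPM, and had 33.4 and 51.3 CPM in mycelium and 25.5 and 34.8 CPM in perithecia of Δasm2. Its interaction was 2.45 (SE 0.34, edgeR adjusted p = 0.00528; lost without Δasm2 perithecia replicate 2, adjusted p = 0.0506).

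Some called genes were changed by the deletion with 1 sign in both tissues and to different extents. SMAC_03692 had the highest group mean among the called genes with an interaction below 0. It had 2027 and 1326 CPM in wild-type perithecia and 175 and 126 CPM in Δasm2 perithecia, 11.1-fold less. In mycelium it had 208 and 183 CPM in the wild type and 71.0 and 66.0 CPM in Δasm2, 2.86-fold less. It rose from mycelium to perithecia in both strains, and by less in Δasm2 (interaction -1.96, SE 0.35, edgeR adjusted p = 0.0184, lost in 6 of 15 settings).

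SMAC_04796 was also lower in both tissues of Δasm2. The wild type had 16.7 and 9.75 CPM in mycelium and 96.9 and 93.6 CPM in perithecia, while Δasm2 had 4.45 and 4.94 CPM and 6.21 and 3.68 CPM. The rise of the wild type was 7.22-fold, and the Δasm2 tissues overlapped (interaction -2.78, SE 0.57, edgeR adjusted p = 0.0329, lost in 7 of 15 settings).

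SMAC_00158 had the highest group mean among the called genes with an interaction above 0. It stood at 1693 and 1018 CPM in wild-type mycelium and at 269 and 387 CPM in Δasm2 mycelium. In perithecia the strains were close, with 17.3 and 23.5 CPM in the wild type and 22.3 and 24.2 CPM in Δasm2. Perithecia were 66.5-fold lower than mycelium in the wild type and 14.1-fold lower in Δasm2 (interaction 2.23, SE 0.43, edgeR adjusted p = 0.0257, lost in 5 of 15 settings).

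SMAC_01294 was called in the interaction although Δasm2 passed the threshold in neither tissue. It had 12.1 and 14.1 CPM in wild-type and 46.0 and 18.2 CPM in Δasm2 mycelium, and 88.0 and 46.5 CPM in wild-type and 28.1 and 29.9 CPM in Δasm2 perithecia (interaction -2.51, SE 0.55, edgeR adjusted p = 0.0414, lost in 7 of 15 settings). The gene deleted in the other strain, SMAC_03952, gave no called interaction. It had between 171 and 275 CPM in the 8 libraries (interaction 0.44, SE 0.31, edgeR adjusted p = 0.472).

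Read by strain, the genes with an interaction below 0 were mostly genes that rise in wild-type perithecia. Of the 121, 103 were higher in wild-type perithecia than in wild-type mycelium (14.7% of all genes tested) and 1 was lower (13.3%). In Δasm2, 4 of them were higher in perithecia (12.9% of all) and 56 were lower (13.3%). The tissue difference was called in opposite directions for 38 genes, higher in wild-type and lower in Δasm2 perithecia, with medians of 1.01 and -0.99. For 61 genes it was called in the wild type alone (medians 1.78 and -0.31), for 17 in Δasm2 alone (0.26 and -2.29), and 4 rose in both strains (3.29 and 1.17). Of the 50 genes with an interaction above 0, 37 were lower in wild-type perithecia. In 22 of these 37 Δasm2 was not called (medians -1.76 and 0.22), in 12 it was also lower (-3.67 and -1.42), and in 3 it was higher (-1.11 and 1.15). The other 13 rose in Δasm2 perithecia alone (-0.17 and 2.13). The interaction is the difference of these tissue changes and shares their libraries, so the shares describe it.

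The ΔSMAC_03952 strain, another deletion strain sampled in both tissues, shares no library with the 4 groups of the interaction and was set beside it. Its libraries did enter the fit over all 14 libraries, which gave the spread by which the genes were called. Of the 121 genes with an interaction below 0, 60 were lower in ΔSMAC_03952 perithecia than in its mycelium (19.4% of all genes tested) and 4 were higher (16.4%). Their median tissue change was -0.76 in ΔSMAC_03952, -0.65 in Δasm2 and 1.37 in the wild type. Of the 50 genes with an interaction above 0, 16 were higher and 16 lower in ΔSMAC_03952 perithecia, with a median of 0.24, against 0.27 in Δasm2 and -1.74 in the wild type. The estimate for ΔSMAC_03952 lay closer to that of Δasm2 than to that of the wild type in 152 of the 171 called genes, 88.9%, and in 72.1% of all genes tested. The called genes were picked for a wide gap between the Δasm2 and wild-type estimates, the 2 ends of this measure. The 2 shares are therefore not like for like. Scaled by library totals alone, the split over all genes in ΔSMAC_03952 turned from 1556 higher and 1840 lower to 1953 higher and 1326 lower. In Δasm2 it also turned, from 1226 higher and 1263 lower to 1438 and 1028. The wild type moved the same way, from 1401 higher and 1261 lower to 1529 and 1121.

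**Figure D5:**
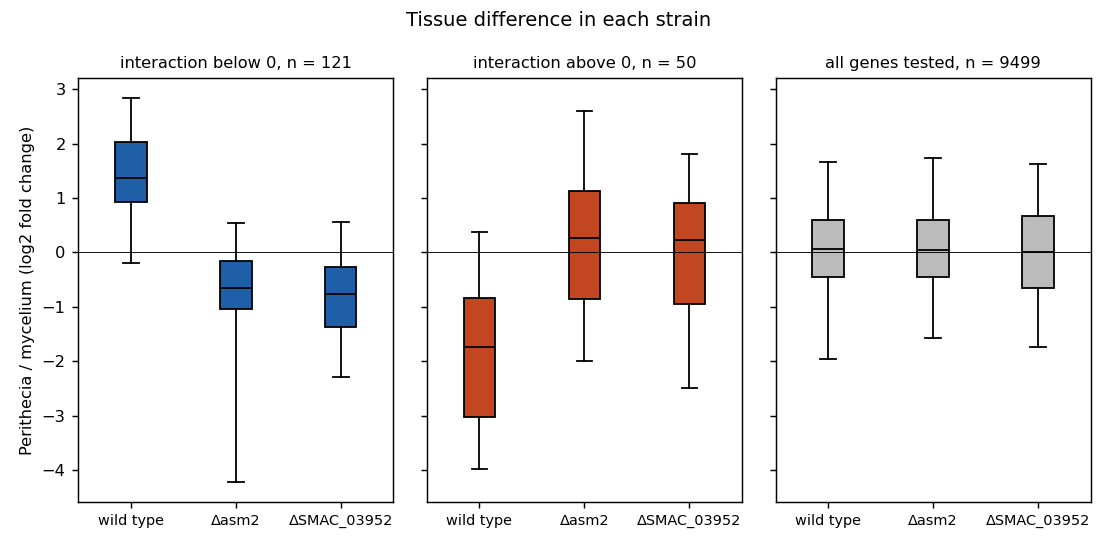
Log2 fold change of perithecia against mycelium (y axis) in 3 strains, for the called genes by sign of the interaction and for all genes tested. Boxes hold the middle 50% with a line at the median and whiskers at the 5th and 95th percentiles; in both called sets the ΔSMAC_03952 median lies nearer to that of Δasm2 than to that of the wild type, and above 0 the ΔSMAC_03952 and wild-type boxes overlap slightly.

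Whether the tissue change differs between Δasm2 and ΔSMAC_03952 was tested directly, without the wild type. It differed in 14 genes, 0.147% of those tested, and at an unadjusted p under 0.05 in 871. A p that misses the threshold in the other genes does not show that the strains act alike. Of the 14, 5 were called in the interaction (1.8% of all genes tested), all below 0: SMAC_00291, SMAC_00798, SMAC_01390, SMAC_06339 and SMAC_09488. Of these, SMAC_00291, SMAC_00798 and SMAC_06339 were named after their values were seen. Both tests use the same Δasm2 libraries, so the overlap and its sign are no separate evidence. SMAC_01390 and SMAC_09488 fell from mycelium to perithecia in Δasm2 (-4.43 and -2.62 on the log2 scale), while in ΔSMAC_03952 SMAC_09488 rose by 1.25 (edgeR adjusted p = 0.0302) and SMAC_01390 had a change of 1.31 (edgeR adjusted p = 0.207). The differences between the strains were -5.74 for SMAC_01390 (edgeR adjusted p = 0.0323) and -3.88 for SMAC_09488 (edgeR adjusted p = 0.0295). SMAC_06339 had 188 and 278 CPM in Δasm2 mycelium and between 36.8 and 67.4 CPM in the other wild-type, Δasm2 and ΔSMAC_03952 libraries, while the mycelium of the spt3 deletion strain had 181 and 203 CPM. SMAC_00291 rose in wild-type perithecia by 2.77, rose in Δasm2 perithecia by 0.99 (edgeR adjusted p = 0.0118) and fell in ΔSMAC_03952 perithecia by 1.30. SMAC_00798 stood at 189 and 157 CPM in wild-type perithecia, 48.2 and 44.2 CPM in Δasm2 perithecia and 15.6 and 11.6 CPM in ΔSMAC_03952 perithecia. The count of 14 was 4 and 20 without Δasm2 mycelium replicate 1 and 2, 1 and 8 without Δasm2 perithecia replicate 1 and 2, and 25 and 10 without ΔSMAC_03952 mycelium replicate 1 and 2. Without either ΔSMAC_03952 perithecia replicate it was 0 by edgeR, with 660 and 454 genes at an unadjusted p under 0.05. By DESeq2 on all libraries it was 112.

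The called genes lay at all levels of expression. Of 3 equal bins of genes by mean over the 8 libraries, 0.884% were called in the lowest (up to 20.4 CPM), 2.02% in the middle and 2.5% in the highest (from 68.2 CPM). Gene length moved with the interaction: across the 9499 genes its Spearman correlation with length was 0.16, and the median interaction was -0.14, -0.06 and 0.19 in 3 equal bins from the shortest to the longest genes, the last starting at 2394 bases. An interaction below 0 was called for 1.23%, 1.83% and 0.758% of these bins, and one above 0 for 0.6%, 0.474% and 0.505%. With length trends removed from each library 353 genes were called, 168 of them among the 171. The correlation with length was larger in the comparisons with ΔSMAC_03952, 0.31 for its tissue change and -0.37 for the difference between the deletion strains, and the part of length in those results was not tested.

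Most called genes had no neighbour called with the same sign. Of all genes tested, 1.27% were called below 0 and 0.526% above 0. Whether called genes lie together more often than other genes was not tested. By the gene order of a RefSeq annotation (ASM3387043v1), in which 166 of the 171 were found, 12 (7.23%) lay next to another gene called with the same sign. They formed 6 pairs and no longer run, among them SMAC_12741 with SMAC_12742, SMAC_07346 with SMAC_07347 and SMAC_05928 with SMAC_05929, named after their values were seen. The order held only the 9173 tested genes found in the annotation, so genes lying between neighbours may have been skipped. A gene has a neighbour on either side, so the 7.23% is not like for like with the 1.27% and 0.526% per gene. How the counting treated strand and overlapping neighbours was not given in the sources used here.

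A pair of genes was called in all 15 alternative settings, and both were named after their values were seen. SMAC_04370 had 660 and 589 CPM in wild-type perithecia and 71.8 and 49.7 CPM in Δasm2 perithecia. In mycelium it had 59.5 and 55.2 CPM in the wild type and 48.8 and 56.4 CPM in Δasm2. The level of the wild type in mycelium and those of both Δasm2 tissues thus lay within 1 range, below the wild-type perithecia. Its interaction was -3.24 (SE 0.35, edgeR adjusted p = 0.00494, at most 0.0406 over the settings). SMAC_12742, the neighbour of SMAC_12741, had 436 and 358 CPM in wild-type mycelium and 102 and 125 CPM in Δasm2 mycelium. In perithecia it had 25.2 and 27.6 CPM in the wild type and 44.5 and 32.3 CPM in Δasm2, so the strains differed less there (interaction 2.34, SE 0.32, edgeR adjusted p = 0.00528, at most 0.0406).

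In the authors' deposited table, which holds no interaction, the log2 fold change of Δasm2 in perithecia minus that in mycelium lay within 0.1 of the interaction here for 169 of the 171 genes and had its sign for 171. Of all 9499 genes tested, 9413 lay within 0.1 and 9420 had the same sign. Both sets of values come from the same libraries, so their closeness is no separate evidence. For SMAC_12746 the authors' deposited table gives -4.35 in perithecia and 0.68 in mycelium, and for SMAC_12709 it gives 1.66 and -1.67.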

How the data were processed

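The deposited table holds raw counts per gene model for 14 libraries (7 groups of 2), the length of each model, and the authors' mean normalized signal, log2 fold changes and adjusted p-values (written to 2 decimals), per the file headers. Per the submitters' processing notes, DESeq2 (no version named) was part of the authors' processing. Aligner, counting program, genome build and strand handling were not given in the sources used here, so values of paralogs and overlapping genes are uncertain. The authors' signal column was not used, and their log2 fold changes were set beside the results only.

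Of 10014 rows, 145 second transcripts without counts were left out, which leaves 9869 gene models. In R 4.3.3 with edgeR 4.0.16, filterByExpr kept 9499; the 370 left out held 0.00468% of the counts. TMM factors, 1 mean per group over all 14 libraries (common dispersion as a coefficient of variation 0.237, with 7 residual and 5.5 prior degrees of freedom), glmQLFit and glmQLFTest were used, with Benjamini-Hochberg adjustment over all genes per comparison. A gene is called at an adjusted p under 0.05. The standard error is the size of the log2 fold change divided by the square root of F. Levels are CPM on scaled library sizes. The method was tested on simulated data. The total count of the 14 libraries lay between 6383079 and 24029990. The counts of replicates gave a chi-square per gene of 34.9 to 111 in the 4 groups, above sampling noise, so none was counted as a copy.

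The members, lists and tests were chosen with earlier results of these data known. Named genes follow a rule: among called genes that reach 10 CPM in 1 group and whose replicates differ by at most 4-fold after adding 1 CPM (162 of 171), the 2 most extreme interactions per sign and the 2 largest per class. To these were added the gene with the highest group mean per sign, SMAC_03952 and the gene with the lowest Δasm2 to wild-type ratio in perithecia. Lists by product or protein were not run, since the identifiers (9531 matched an old locus tag) carry no names. Alternatives were RLE or no scaling, no filter, DESeq2 1.42.0, the 8 libraries alone, a replicate block, length offsets and leaving out each replicate.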

Additional observations from a re-analysis of the deposited data

Results flagged for a closer look

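The effect of the asm2 deletion differed between mycelium and perithecia, by the interaction test itself, for 171 genes and for the 20 named ones that passed it. Among the named genes with an interaction below 0, its log2 value was -5.29 for SMAC_08989, -5.04 for SMAC_12746, -3.91 for SMAC_01390, -3.91 for SMAC_09488 and -3.60 for SMAC_03080. It was -3.53 for SMAC_05678, -3.48 for SMAC_08829, -2.78 for SMAC_04796, -2.75 for SMAC_07347, -2.51 for SMAC_01294 and -1.96 for SMAC_03692. Above 0 it was 3.66 for SMAC_01548, 3.47 for SMAC_08453, 3.32 for SMAC_12709, 3.02 for SMAC_09080 and 2.98 for SMAC_12949. It was 2.96 for SMAC_05329, 2.66 for SMAC_08605, 2.45 for SMAC_12741 and 2.23 for SMAC_00158.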

How the results depend on the processing

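The interaction count of 171 was 170 with RLE factors, 159 without scaling factors and 175 without the filter. It was 680 (299 higher, 381 lower) with DESeq2, 422 (194 and 228) with the 8 libraries alone and 353 (101 and 252) with length trends removed, against 50 higher and 121 lower as reported. These 3 settings called 171, 169 and 168 of the 171 genes, and the cause of the larger counts was not tested. Leaving out 1 library gave 2 to 365 genes for the interaction, 369 to 705 for Δasm2 in perithecia (1118 as reported), 108 to 719 in mycelium (576), 1412 to 1896 for tissue in the wild type (2662), 1151 to 2052 in Δasm2 (2489), 1327 to 2875 in ΔSMAC_03952 (3396) and 0 to 25 for the difference between the deletion strains (14). DESeq2 called 939 genes for Δasm2 in mycelium and 112 for the difference between the deletion strains, which without scaling factors gave 9. With the replicate number as a replicate block the interaction held 231 genes (90 higher, 141 lower), 170 of them among the 171. No total moved by over 1.5 times, while the calls above 0 in the interaction did, from 50 to 90. The labels do not say that a number marks a shared batch, so the samples were not taken as paired. Across genes, deviations of same-numbered replicates correlated at 0.19 to 0.32 among Δasm2 perithecia, wild-type perithecia and Δasm2 mycelium. Between each of these groups and wild-type mycelium the correlation was -0.37 to -0.13. What same-numbered replicates share was not tested. The calls of the 20 genes named by the rule were all lost without Δasm2 perithecia replicate 2; the 7 settings that left out no replicate lost 4 of them, all without scaling factors. The interaction of SMAC_02514, not called, turned to 6.19 without Δasm2 mycelium replicate 1, where that group holds 0 counts, and without replicate 2 it was -3.33 and called (edgeR adjusted p = 0.0274). Of the classes, lower in perithecia alone held 213 of 530 genes at an adjusted p under 0.1 and 20 of 23 under 0.01. Each threshold was applied to the interaction and to the comparison in each tissue. At 0.01, SMAC_09488 and SMAC_07347, opposite between the tissues at 0.05, are counted as lower in perithecia alone. Their edgeR adjusted p in mycelium was 0.0125 and 0.02, so the rise in share partly reflects the stricter threshold there. With 2 replicates a group, the smallest interaction called was 1.20.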

Other observations

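Genes outside the interaction also separated the deletion strains. Of the 14 genes whose tissue change differed between Δasm2 and ΔSMAC_03952, 9 were not called in the interaction. Of these, 8 were higher in perithecia than in mycelium in both the wild type and Δasm2, and had less transcript in perithecia of Δasm2 than of the wild type. The shares over all genes tested were 14.7%, 12.9% and 6.73% for these 3 calls. The same 8 were also called lower in Δasm2 mycelium than in wild-type mycelium (2.61% of all). In ΔSMAC_03952, 6 of the 9 were lower in perithecia than in mycelium (19.4% of all). The 14 were picked by the tissue change in Δasm2 minus that in ΔSMAC_03952, and in the 8 this difference was above 0. A rise in Δasm2 perithecia and a fall in ΔSMAC_03952 perithecia were therefore partly built in. The comparisons of Δasm2 with the wild type share its libraries with that difference. The shares over all genes tested are thus not like for like with these counts. SMAC_07669, chosen after its values were seen, had 1299 and 1146 CPM in wild-type, 200 and 125 CPM in Δasm2 and 0.434 and 0.795 CPM in ΔSMAC_03952 perithecia. In mycelium it had 73.6 and 77.4 CPM in the wild type, 16.4 and 16.7 CPM in Δasm2 and 7.22 and 2.61 CPM in ΔSMAC_03952. It was lower in Δasm2 in both tissues, by factors whose difference did not pass the threshold (interaction -0.73, edgeR adjusted p = 0.476), while the tissue change differed from that of ΔSMAC_03952 by 6.13 on the log2 scale (edgeR adjusted p = 0.00743). None of the 14 was called without either replicate of ΔSMAC_03952 perithecia.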
